A study of Mus musculus with 10 samples.

Results

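Described here are 10 genes of lipid uptake, storage and efflux, namely Lpl, Fabp4, Fabp5, Plin2, Apoe, Apoc1, Abca1, Abcg1, Nr1h3 and Mylip. They were picked by symbol out of the 54532 genes of the deposited table, and all 10 had a row and passed the filter on low values. Their RNA was sequenced in primary mouse peritoneal macrophages, the phagocytes that line and patrol the abdominal cavity. Of the 10 libraries, 3 were labelled aged Trem1-/- (numbered 1, 2 and 3), 3 aged Wild Type (numbered 3, 4 and 6) and 4 young Wild Type (lettered A, B, C and E), and values below keep that order within each group. Trem1-/- is the only allele named, no agent was given to any group, and no young Trem1-/- library was analysed here. The study asks how loss of TREM1, an activating receptor of myeloid cells, bears on macrophage gene expression with age. The labels give no age in months, sex, strain, sorting step or batch, nor whether each library is a separate mouse, so p-values measure the spread between libraries, which may be technical.

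Macrophages take up lipoproteins, dead cells and free fatty acids, and must store or export what they cannot break down. LPL frees fatty acids from triglyceride-rich particles, FABP4 and FABP5 carry them inside the cell, and PLIN2 coats the droplets in which neutral lipid is held. ABCA1 and ABCG1 pass cholesterol out to lipoproteins, with APOE among its acceptors. The oxysterol-activated receptor LXRα, the product of Nr1h3, switches on Abca1, Abcg1, Apoe, Apoc1, Lpl and Mylip, and the MYLIP protein, also called IDOL, marks the LDL receptor for destruction.

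Recovered reads were between 3138568 and 4628187 in the libraries labelled Trem1-/-, between 2663744 and 3614156 in aged wild type and between 2939414 and 5603498 in young wild type. At least 1 read was found for 18421 to 22326 genes with the Trem1-/- label, for 25423, 21323 and 26032 in aged wild type, and for 19597 to 22690 in young wild type. Aged wild-type replicates 3 and 6 thus stood above all other libraries, and the part of this in the results below was not tested. Trem1 itself stood at 23.5, 106 and 13.8 normalized counts in the libraries labelled Trem1-/-, at 64.0, 15.3 and 27.0 in aged wild type and at 14.8, 8.0, 12.0 and 24.4 in young wild type. The targeted gene was therefore read in every library. Reads summed over a whole gene do not show whether 1 stretch of it is missing, so the genotype below is the labelled one.

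The preparations differed in cell markers. Summed over 6 macrophage genes (Adgre1, Csf1r, Cd68, Itgam, Mertk and Fcgr1), they held 12377 to 13924 normalized counts with the Trem1-/- label, 5153 to 8776 in aged wild type and 13608 to 15452 in young wild type. Of these markers 5 of 6 were lower in aged than in young wild type (median log2 fold change -1.08), and 5 of 6 were higher with the Trem1-/- label than in aged wild type (median 0.99). The 4 markers of large peritoneal macrophages were Gata6, Timd4, Icam2 and F5. They summed to between 12734 and 14897 normalized counts with the Trem1-/- label and between 3163 and 5761 in aged wild type. Young wild type held between 13043 and 13784. Most of this sum was F5, at 10191 to 12921 with the Trem1-/- label and 2221 to 4420 in aged wild type. In young wild type F5 was at 9221 to 10930.5. Timd4 overlapped between the aged genotypes, at 518 to 956 with the Trem1-/- label and 346 to 839 in aged wild type. Its young values were 718 to 1943. Of the 4, 3 were called higher with the Trem1-/- label than in aged wild type. Markers of small peritoneal macrophages summed to 3708 to 4070 with the Trem1-/- label and 3544 to 5598 in aged wild type. In young wild type they summed to 2555 to 3922. Most of this sum was H2-Ab1, at 2994 to 4980 in aged wild type and 1928 to 3026 in young wild type. By age 1 of these 4 markers was called higher and 2 lower. Ccr2 went against the sum, at 159 to 201 in aged wild type and 377 to 510 in young wild type. Cd226 was also lower in every aged wild-type library than in any young one. Within aged and within young wild type H2-Ab1 ranked the libraries as the B cell sum below does. With the Trem1-/- label it did not, and the part of B cells in H2-Ab1 was not tested. For 6 B cell markers the sums were 2139 to 5249 with the Trem1-/- label and 5393 to 8901 in aged wild type. Those of young wild type were 1034 to 2323. T and NK cell markers summed to 24.5 to 52.9 with the Trem1-/- label, 141 to 246 in aged wild type and 17.4 to 41.0 in young wild type. Markers of mesothelial cells and fibroblasts summed to 9.20 to 303 with the Trem1-/- label and 368 to 504 in aged wild type. In young wild type they summed to 4.31 to 235. Most of this sum in aged wild-type replicates 3 and 4 was Krt18, at 280 and 352, beside 50.3 in replicate 6. Dcn was at 101, 5.46 and 144 in aged wild type, and at 131 in replicate 2 with the Trem1-/- label. Of 5 tested markers of this list, 1 was called higher in aged than in young wild type. Endothelial markers, whose cells also handle fatty acids, summed to 116 to 182 with the Trem1-/- label, 383 to 508 in aged wild type and 60.4 to 143 in young wild type. Most of the endothelial sum was Pecam1, which leukocytes also express, at 95.3 to 165 with the Trem1-/- label, 248 to 475 in aged wild type and 46.5 to 119 in young wild type, while Cdh5, Kdr, Tek and Emcn were each at or below 10.9 in every library and Vwf reached 109 in aged wild-type replicate 4. The 6 adipocyte markers stayed at or below 16.8 normalized counts in sum in all libraries. Among them Adipoq had no read in the libraries labelled Trem1-/- or in young wild type. Mast cell markers summed to 92.0 to 1374 with the Trem1-/- label and 785 to 1754 in aged wild type. In young wild type the mast cell sum was 34.9 to 1052. Aged wild-type replicate 4 had 23701 normalized counts over 6 erythroid markers, against 473 and 529.9 in the other aged wild-type libraries, and the highest macrophage sum of its group. The erythroid sums were 17.2 to 57.7 with the Trem1-/- label and 9.30 to 751 in young wild type. Of 5 tested erythroid markers, 5 were called higher in aged than in young wild type. With the Trem1-/- label 5 of 5 were called lower than in aged wild type. In bulk RNA, fewer cells of a type and less RNA per cell cannot be told apart. The part of cell makeup in the results below was not tested beyond a rescaling to equal macrophage markers, given after them.

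In aged wild type against young wild type, 5 of the 10 genes were lower (Lpl, Fabp4, Fabp5, Plin2 and Apoc1) and 1 was higher (Mylip). By the same test (limma, Benjamini-Hochberg adjusted p below 0.05) 33.3% of the 11506 genes tested were called in this comparison, 19% lower and 14.3% higher. In aged Trem1-/- against aged wild type, Fabp4 and Plin2 were higher and 0 were lower, where 18.4% of all genes were called, 11.5% higher and 6.82% lower. No member was lower at an unadjusted p below 0.05 by limma or edgeR, and 1 was by DESeq2. In aged Trem1-/- against young wild type, Lpl and Apoc1 were lower and 0 were higher, where 0.921% of all genes were called, 0.33% lower and 0.591% higher. At an unadjusted p below 0.05, 3 members were higher there by limma, and at the adjusted threshold edgeR called 0 and DESeq2 called 2 higher. The 2 of 10 members called with the Trem1-/- label against aged wild type are near the share of all genes. By age 6 of 10, and 2 of 10 in the comparison of that label with young wild type, are above it. These differences were not tested. The members were chosen with earlier results of these data known, so these shares are a description only. The median log2 fold change of the 10 genes was -0.75 in aged against young wild type, 0.65 with the Trem1-/- label against aged wild type and 0.27 with that label against young wild type. Over all genes tested the medians lay between -0.02 and 0.02. The comparisons share their groups and are not independent of each other.

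**Figure D1:**
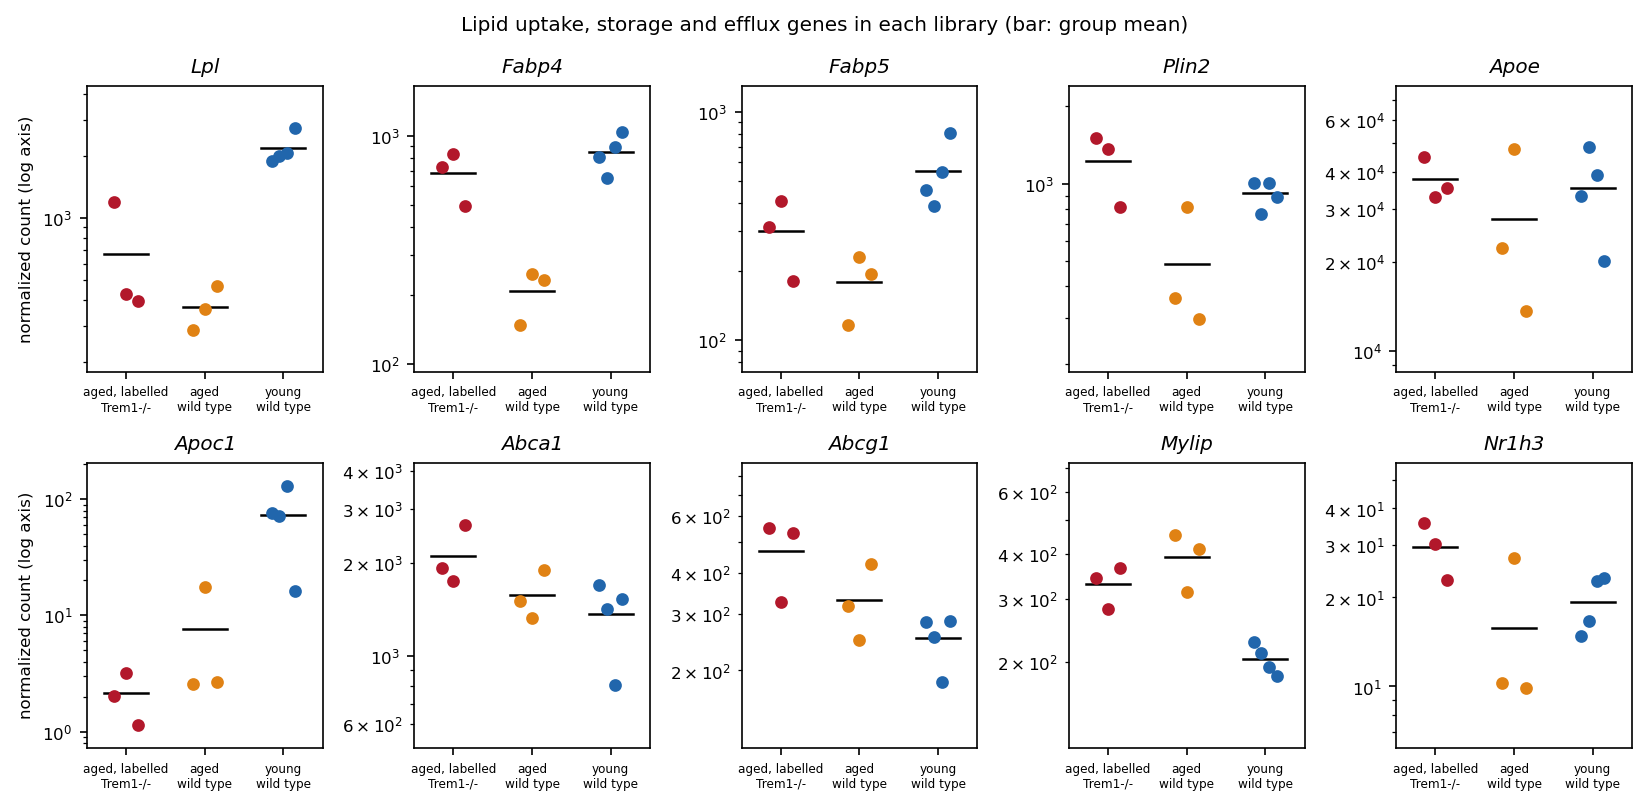
Normalized counts (log axis) of the 10 genes in each library, with the libraries labelled aged Trem1-/- at the left, aged wild type in the middle and young wild type at the right of each panel; bars are group means. Fabp4 lies at 493 to 837 with the Trem1-/- label, 147 to 248 in aged wild type and 651 to 1037 in young wild type, while Apoc1 is at most 3.20 in the libraries with the Trem1-/- label.

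**Figure D2:**
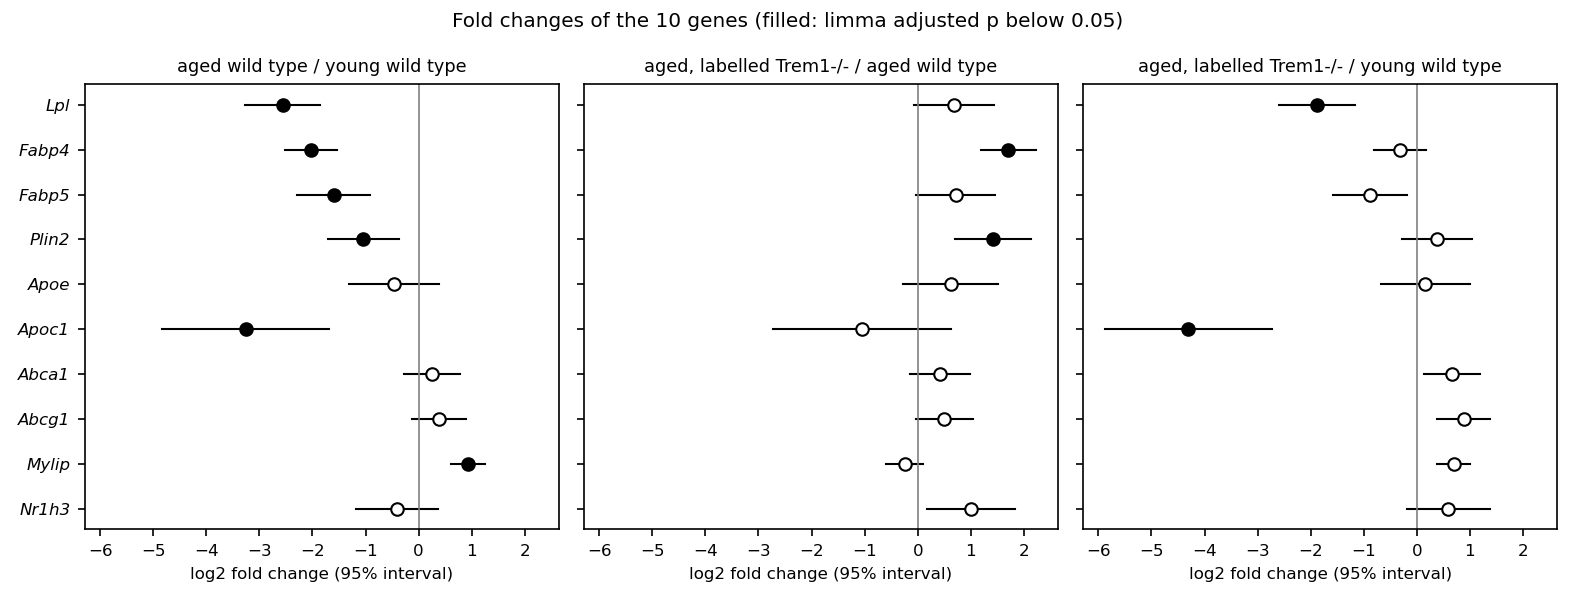
Log2 fold changes of the 10 genes on the log2(normalized count + 1) scale in the 3 comparisons, with 95% intervals from limma; filled points passed an adjusted p of 0.05. Apoc1 has the lowest value in each panel, and Mylip is the only filled point right of 0 in aged against young wild type.

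Lpl (GRCm38 chromosome 8, 68880491 to 68907448, plus strand) encodes lipoprotein lipase, the secreted enzyme that hydrolyses triglyceride in lipoproteins. It had 1190.3, 426 and 393 normalized counts in the libraries labelled Trem1-/-, 287, 360.1 and 467 in aged wild type, and 1902, 2010.5, 2058 and 2734 in young wild type. Every aged library of either genotype lay below every young one, and only replicate 1 with the Trem1-/- label stood clear of the aged wild-type range. Group means were 670.0 ± 451 with the Trem1-/- label, 371 ± 90.8 in aged wild type and 2176 ± 377 in young wild type (SD). Lpl fell by 2.56 ± 0.33 on the log2 scale (SE) in aged against young wild type (limma adjusted p = 0.000336), with means 5.86-fold apart. The libraries labelled Trem1-/- were lower than young wild type as well (log2 fold change -1.88 ± 0.33, limma adjusted p = 0.0290). That second call was lost without Trem1-/- replicate 2 or 3 or young replicate A, C or E (adjusted p up to 0.123) and with edgeR (adjusted p = 0.0526). Between the aged genotypes the difference did not pass (0.68, 95% interval -0.08 to 1.44, limma adjusted p = 0.191).

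Fabp4, also called aP2, encodes an intracellular fatty acid carrier of adipocytes and macrophages, and lies on chromosome 3 (10204088 to 10208576, minus strand). Its normalized counts were 727, 837 and 493 in the libraries labelled Trem1-/-, 147, 248 and 233 in aged wild type, and 809, 651, 895 and 1037 in young wild type. All aged wild-type values lay below all others, while the ranges with the Trem1-/- label and in young wild type overlapped. Fabp4 averaged 209 ± 54.2 in aged wild type against 848 ± 161 in young wild type (-2.03 ± 0.22 as log2 fold change, limma adjusted p = 0.000212). It averaged 686 ± 176 with the Trem1-/- label, 3.28-fold the aged wild-type mean (1.71 ± 0.24, limma adjusted p = 0.00182). Both calls held when each library in turn was left out. Against young wild type the Trem1-/- label left a difference of -0.32 with a 95% interval of -0.81 to 0.17 (limma adjusted p = 0.575).

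Fabp5, its relative in the same gene cluster (chromosome 3, 10012548 to 10016607, plus strand), lies 187480 bp from Fabp4. It had 315, 407 and 181 normalized counts in the libraries labelled Trem1-/-, 116, 231 and 194 in aged wild type, and 455, 385, 546 and 810.1 in young wild type. The aged wild-type range lay wholly below the young one, and the libraries labelled Trem1-/- reached into both. Fabp5 fell by 1.6 ± 0.32 on the log2 scale in aged against young wild type (limma adjusted p = 0.00284). It was not called with the Trem1-/- label against aged wild type (0.71, 95% interval -0.03 to 1.45, limma adjusted p = 0.161) or against young wild type (-0.89, -1.58 to -0.19, limma adjusted p = 0.223). Of the 50-base words of its transcripts, 5.48% occur in other annotated genes, a larger share than in any other of the 10, so some of its reads may be shared.

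Plin2, the lipid droplet coat gene (chromosome 4, 86648386 to 86670060, minus strand), held 1501, 1364 and 816 normalized counts in the libraries labelled Trem1-/-, 359.7, 812 and 297 in aged wild type, and 1008, 764, 1006 and 891 in young wild type. Aged wild-type replicate 4 stood apart from its group, close to the lowest library with the Trem1-/- label and inside the young range. The means were 1227 ± 363 with the Trem1-/- label, 489.6 ± 281 in aged wild type and 917 ± 116 in young wild type. Plin2 was lower in aged than in young wild type (-1.04 ± 0.30 as log2 fold change, limma adjusted p = 0.0219) and higher with the Trem1-/- label than in aged wild type (1.42 ± 0.33, limma adjusted p = 0.0138). The age call did not survive leaving out young replicate A or C, or replicate 3 or 6 of aged wild type (adjusted p up to 0.103) and with edgeR (adjusted p = 0.0522). The genotype call did not survive leaving out replicate 1 or 2 with the Trem1-/- label, or replicate 3 or 6 of aged wild type (adjusted p up to 0.0531), and when only the aged libraries were fitted (adjusted p = 0.0530).

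Apoe was by far the most abundant of the 10. This gene of apolipoprotein E, which macrophages secrete (chromosome 7, 19696109 to 19699188, minus strand), had 45043, 33018 and 35486 normalized counts in the libraries labelled Trem1-/-, 22208, 47746 and 13629.8 in aged wild type, and 33164, 48775, 39236 and 20119 in young wild type. The 3 groups overlapped, and the aged wild-type libraries alone spanned nearly the whole range. No comparison was called, with log2 fold changes of 0.62 (95% interval -0.28 to 1.52) with the Trem1-/- label against aged wild type and -0.46 (-1.30 to 0.38) in aged against young wild type. Without aged wild-type replicate 4, Apoe was called higher with the Trem1-/- label than in aged wild type (1.11, limma adjusted p = 0.0295) and lower in aged than in young wild type (-0.95, limma adjusted p = 0.0321).

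Apoc1 encodes a small apolipoprotein that, in mouse and human, sits beside Apoe. It lies 3448 bp from Apoe on the same strand (chromosome 7, 19689481 to 19692660), yet the genes had unlike profiles. Apoc1 had 2.04, 3.20 and 1.15 normalized counts in the libraries labelled Trem1-/-, 2.56, 17.5 and 2.70 in aged wild type, and 76.7, 71.4, 129.7 and 16.3 in young wild type. These rest on 2, 4 and 1 reads with the Trem1-/- label, 2, 16 and 3 in aged wild type, and 88, 116, 108 and 14 in young wild type. With 3 reads taken as the floor, 1.85 to 3.84 normalized counts depending on the library, 5 of the 6 aged libraries were near it, and aged wild-type replicate 4 overlapped the lowest young library. Apoc1 was lower in aged than in young wild type (-3.26 ± 0.72 as log2 fold change, limma adjusted p = 0.00518), a call kept when any single library was left out. It was also lower with the Trem1-/- label than in young wild type (-4.31 ± 0.72, limma adjusted p = 0.0265), a call lost without Trem1-/- replicate 1 or 3 or young replicate A or C (adjusted p up to 0.111). From the summed reads, 7 with the Trem1-/- label against 326 in young wild type, the ratio was 0.0309, with an exact 95% interval of 0.0123 to 0.0645 for counting error only. For aged against young wild type it was 0.102 (0.0625 to 0.159), on 21 against 326 reads.

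Set against its neighbour in the same library, Apoc1 gave 0.0454, 0.0971 and 0.0323 counts per 1000 of Apoe with the Trem1-/- label, 0.115, 0.366 and 0.198 in aged wild type, and 2.31, 1.46, 3.31 and 0.809 in young wild type. On this measure the lowest young library stood above the highest aged one. The libraries labelled Trem1-/- also lay below aged wild type, but the nearest values, 0.0971 with that label and 0.115 in aged wild type, rest on 4 and 2 Apoc1 reads, and 1 read either way would make these groups overlap. The ratio was formed after the values were seen and carries no test.

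Abca1 (chromosome 4, 53030787 to 53159895, minus strand) and Abcg1 (chromosome 17, 31057675 to 31117988, plus strand) encode the transporters that hand cholesterol to lipid-poor apolipoprotein A-I and to HDL. Like Mylip, both are LXR targets in mouse macrophages, and the 250 bases before the start of Abca1 and of Mylip are shown to place the known LXR element of Abca1 beside a target whose promoter window lacks that match. Both come from RefSeq on GRCm38.p6, in which 5 of the 10 members had an entry (Abca1, Apoe, Mylip, Nr1h3 and Plin2). Abca1 is chr4:53159896-53160145 on the minus strand and Mylip chr13:45389492-45389741 on the plus strand. Capitals mark a match, on either strand, to an LXR-type repeat (GGTTA, any 5 bases, then GGTCA) and the TATA box TATAAA.
Abca1 promoter: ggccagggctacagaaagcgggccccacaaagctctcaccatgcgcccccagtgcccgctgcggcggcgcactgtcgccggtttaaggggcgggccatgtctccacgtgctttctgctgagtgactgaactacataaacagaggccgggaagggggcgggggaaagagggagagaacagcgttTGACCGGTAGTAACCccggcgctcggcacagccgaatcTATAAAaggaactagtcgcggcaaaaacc
Mylip promoter: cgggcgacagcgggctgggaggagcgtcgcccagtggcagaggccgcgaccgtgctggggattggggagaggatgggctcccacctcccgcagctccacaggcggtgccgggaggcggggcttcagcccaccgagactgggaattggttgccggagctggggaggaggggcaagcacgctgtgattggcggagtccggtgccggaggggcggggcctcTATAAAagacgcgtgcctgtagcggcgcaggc
In Abca1 the repeat begins 67 bases before the start, on the reverse strand, and TATAAA begins 29 before it. In Mylip TATAAA begins 32 bases before the start. The repeat, searched on both strands, occurs in 15 of 32817 promoter windows of the same length (0.0457%), and TATAAA in 12.4%. Because the known element of Abca1 was searched for, its match there tests nothing. An exact DR4 repeat (AGGTCA, any 4 bases, then AGGTCA) was also searched. It had no match in Abca1 or Mylip and occurs in 5 of the windows (0.0152%). These matches describe letters, and the absence of one says only that these letters are not in that window.

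Abca1 had 1932, 1754 and 2656 normalized counts in the libraries labelled Trem1-/-, 1504, 1329 and 1901 in aged wild type, and 1704, 1426, 802 and 1526 in young wild type. Abcg1 had 551, 325 and 532 with the Trem1-/- label, 317, 249 and 427 in aged wild type, and 283, 254, 184 and 285 in young wild type. For both transporters the libraries labelled Trem1-/- lay above all young ones, and the aged wild-type libraries overlapped both other groups. With limma and edgeR no comparison of either gene passed the threshold, and DESeq2 called Abcg1 higher with the Trem1-/- label than in young wild type (0.90, adjusted p = 0.0106). The estimates nearest to it were those with the Trem1-/- label against young wild type, 0.88 ± 0.23 for Abcg1 (95% interval 0.38 to 1.38, limma adjusted p = 0.0955) and 0.66 ± 0.24 for Abca1 (0.14 to 1.19, limma adjusted p = 0.228). In aged against young wild type the intervals were -0.28 to 0.78 for Abca1 and -0.12 to 0.89 for Abcg1, so a fall of the size seen in Lpl or Fabp4 lies outside them. With the Trem1-/- label against aged wild type they were -0.15 to 0.98 and -0.04 to 1.04.

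Mylip, the gene of the LDL receptor ligase (chromosome 13, 45389742 to 45412022, plus strand), was the 1 member called higher with age. It had 342, 280.4 and 367 normalized counts in the libraries labelled Trem1-/-, 453, 314 and 414 in aged wild type, and 227, 211, 193 and 182 in young wild type. All 6 aged libraries were above all 4 young ones, and the aged genotypes overlapped. Mylip averaged 394 ± 71.6 in aged wild type against 203 ± 19.5 in young wild type (0.94 ± 0.15 as log2 fold change, limma adjusted p = 0.000812), and this call held without any single library. In the libraries labelled Trem1-/- it averaged 329.9 ± 44.6, which missed the threshold against young wild type (0.69, 95% interval 0.37 to 1.01, limma adjusted p = 0.0513; DESeq2 called it) and against aged wild type (-0.25, -0.59 to 0.09, limma adjusted p = 0.287).

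Nr1h3, the gene of LXRα (chromosome 2, 91184061 to 91202834, minus strand), was read at low levels. It had 35.8, 30.4 and 22.9 normalized counts with the Trem1-/- label, 10.2, 27.3 and 9.88 in aged wild type, and 14.8, 16.6, 22.8 and 23.2 in young wild type. Aged wild-type replicate 4 again stood apart from its group, above the young range and inside that of the Trem1-/- label, and no comparison was called. The difference between aged genotypes was 1.0 ± 0.38 (95% interval 0.17 to 1.83, limma adjusted p = 0.0877). Without replicate 4 it was called (1.45, limma adjusted p = 0.00805), as was a lower value in aged than in young wild type (-0.86, limma adjusted p = 0.0474). An annotated gene on the same strand, Gm13783, overlaps its exons. The related receptor gene Nr1h2 (LXRβ) stood at 366 ± 38.5 normalized counts with the Trem1-/- label, 355 ± 12.4 in aged wild type and 341 ± 20.2 in young wild type, and was not called.

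Groups that did not overlap were seen for 4 of 10 members in aged against young wild type (40.3% of all genes tested), 2 of 10 with the Trem1-/- label against aged wild type (34.9%) and 5 of 10 with that label against young wild type (15.8%, 7.72% lower and 8.05% higher). The first 2 shares are close to or below those of all genes. In the third comparison the 5 were Lpl and Apoc1 below young wild type and Abca1, Abcg1 and Mylip above it.

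When libraries were rescaled so that the 6 macrophage markers were equal, the median of all genes shifted to 1.02 in aged against young wild type, to -0.85 with the Trem1-/- label against aged wild type and to 0.18 with that label against young wild type. Under this scaling Lpl (-1.51, limma adjusted p = 0.00116), Fabp4 (-0.98, limma adjusted p = 0.00147) and Apoc1 (-2.35, limma adjusted p = 0.00335) were still lower in aged than in young wild type. Fabp5 (-0.55, limma adjusted p = 0.0719) and Plin2 (0.02, limma adjusted p = 0.956) were not. Of the 11506 genes tested, 8567 were called higher with age under this scaling, a larger share than among the members, and 145 lower. Abca1, Abcg1 and Mylip were among those called higher, by 1.31, 1.44 and 1.99, which is 0.28, 0.41 and 0.97 above the shifted median of all genes. Against that median, Lpl stood at -2.53, Fabp4 at -2.0, Fabp5 at -1.57 and Plin2 at -1.01. With the Trem1-/- label against aged wild type Fabp4 stayed higher (0.83, limma adjusted p = 0.0109), Plin2 was not called (0.53, limma adjusted p = 0.0857), and Mylip (-1.13) and Apoc1 (-1.73) were called lower, at -0.28 and -0.88 against the shifted median. Of all genes, 6891 were called lower in that comparison, also a larger share than among the members, and 41 higher. Lpl (-1.71) and Apoc1 (-4.09) were still lower with that label than in young wild type, where 18 of all genes were called lower.

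**Figure D3:**
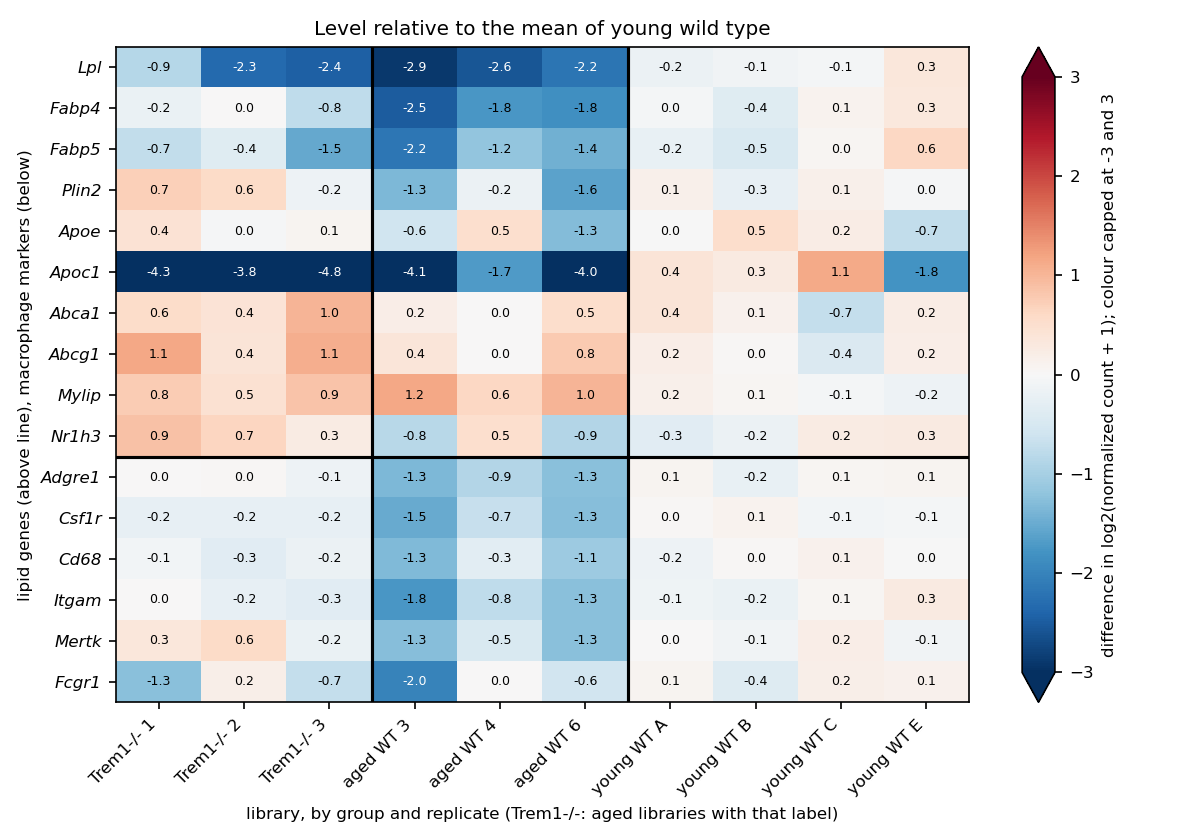
Level of each of the 10 genes and of the 6 macrophage markers in each library, as the difference in log2(normalized count + 1) to the mean of young wild type, with colours capped at -3 and 3. In the aged wild-type columns Lpl lies between -2.90 and -2.20 and Fabp4 between -2.50 and -1.75. The markers Adgre1, Csf1r, Itgam and Mertk are lower in each of these columns than in any other. Cd68 and Fcgr1 are not, at -0.31 and 0.0024 in aged wild-type replicate 4. With the Trem1-/- label Cd68 reaches -0.33 in replicate 2 and Fcgr1 -1.25 in replicate 1.

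Other genes of lipid handling were read in 7 lists, chosen with earlier results of these data known, so their shares are a description only. The lists held 95 genes in all, of which 64 were tested. In aged against young wild type 26 were lower and 4 higher (46.9% called, beside 33.3% of all genes, median log2 fold change -0.36), and with the Trem1-/- label against aged wild type 22 were higher and 2 lower (37.5%, beside 18.4%, median 0.38). With that label against young wild type limma and edgeR called 0 of the 64, at an unadjusted p below 0.05 limma had 5 higher and 6 lower, and DESeq2 called 2 higher and 1 lower. The macrophage marker sums given above move with these lists, and their part was not tested list by list. The scaling to equal macrophage markers shifts all genes of a library alike, so it turns the sign of changes smaller than its shift. In aged against young wild type this was so for Cd36, Lrpap1, Dbi, Soat1, Bscl2, Npc2, Pltp and Smpdl3a, and with the Trem1-/- label against aged wild type for Lrpap1, Slc27a4, Soat1, Pnpla2, Pltp and Ncoa1. Over the members and the genes named from the lists, counted once per comparison, 22 results turned sign under this scaling. A further 15 lost their call with the sign kept, 4 gained a call and 22 stayed the same. A list gene not given here as turned may therefore still have lost its call. Where a pair of log2 fold changes follows a gene, the first is by age (aged against young wild type) and the second by genotype (aged Trem1-/- against aged wild type).

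In the list of lipoprotein uptake 6 of 8 tested genes were lower in aged than in young wild type and 5 of 8 were higher with the Trem1-/- label than in aged wild type. Over all genes tested, 19% were lower by age and 11.5% higher by genotype. Lrp1, the large endocytic receptor that binds apolipoprotein E, had 10627 ± 146 normalized counts with the Trem1-/- label, 5583 ± 1505 in aged wild type and 14150.2 ± 549 in young wild type. Its log2 fold change was -1.37 ± 0.15 with age (limma adjusted p = 0.000214) and 0.96 ± 0.16 by genotype (limma adjusted p = 0.00393). Lrpap1, the chaperone of that receptor family, moved alike at -1.01 and 0.76. Cd36, the scavenger receptor that also takes up fatty acids, had 1369, 909 and 1062 normalized counts with the Trem1-/- label, 447, 803 and 447 in aged wild type, and 1094, 1079, 1102 and 1070.4 in young wild type. Only aged wild type stood apart, with log2 fold changes of -1.0 and 1.01.

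Among fatty acid carriers and activating enzymes, 4 of 10 tested genes were lower with age (19% of all genes). With the Trem1-/- label 3 of 10 were higher than in aged wild type (11.5% of all genes). Dbi, the acyl-CoA binding protein, was lower by age (-0.87), and Slc27a4, a fatty acid transport protein, was higher by genotype (0.88). The list of droplets and neutral lipid turnover was mixed, with 1 of 11 higher and 2 lower by age, and 3 higher and 1 lower by genotype. Of all genes 14.3% were higher and 19% lower by age, and 11.5% higher and 6.82% lower by genotype. Soat1, which esterifies cholesterol for storage, was lower with age (-0.54) and higher with the Trem1-/- label than in aged wild type (0.61), and Bscl2, the gene of the droplet protein seipin, was lower with age (-0.47). Dgat1, an enzyme of triglyceride synthesis, went the other way at 0.90 and -0.58, the second value staying called in 2 of the 10 fits that left out a library, those without young replicate A or E. Pnpla2, the triglyceride lipase ATGL, was higher by genotype (0.77) and not called by age.

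Of genes for lysosomal egress and export of cholesterol, 8 of 13 were lower by age (19% of all genes) and 5 of 13 higher by genotype (11.5%). They included Npc2, which binds cholesterol in the lysosome (-0.87 and 0.90), and the lysosomal membrane gene Lamp2 (-1.07 and 1.0). In the list of other apolipoproteins and lipase control, 4 of 15 genes were tested, and Apobr (-1.13 and 1.05) and the phospholipid transfer protein Pltp (-0.81 and 0.87) passed in both comparisons. The Pltp calls held in 8 and in 5 of the 10 fits that left out a library, being lost without aged wild-type replicate 3 or 6 in both and without any of the libraries labelled Trem1-/- in the second. Among the genes named from these lists, Apobr, Pltp, Bscl2, Ncoa1 and Scd2 share exon bases with other annotated genes.

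Among nuclear receptors and their cofactors, Rxra, the partner receptor of LXR, had 549.8 ± 38.0 normalized counts with the Trem1-/- label, 238 ± 37.5 in aged wild type and 559.8 ± 44.6 in young wild type. It was lower with age (-1.24 ± 0.12, limma adjusted p = 0.000126) and higher by genotype (1.21 ± 0.13, limma adjusted p = 0.00121). Srebf2, the activator of cholesterol synthesis, was the reverse, with 446 ± 14.5 with the Trem1-/- label, 941 ± 297 in aged wild type and 452 ± 48.9 in young wild type (1.02 by age and -1.03 by genotype). The coactivator Ncoa1 was higher by genotype (0.69).

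The 11 other LXR targets did not move as 1 group in aged against young wild type, with 5 lower and 2 higher (19% and 14.3% of all genes). Cd5l, a survival protein of tissue macrophages (-1.31), and Smpdl3a, a phosphodiesterase (-0.94), were lower, and Scd1, the fatty acid desaturase, was higher. Scd1 had 594, 627 and 1407 normalized counts with the Trem1-/- label, 2799, 864 and 2167 in aged wild type, and 316, 381, 288 and 191 in young wild type. Its log2 fold change with age was 2.60 ± 0.40 (limma adjusted p = 0.000785), all 6 aged libraries lying above the young ones. Scd2 was higher too (1.28), a call that needed each of aged wild-type replicates 3 and 6 and young replicates A, C and E. Of the 11, 4 were higher with the Trem1-/- label than in aged wild type (11.5% of all genes), among them Smpdl3a (1.06) and Mertk, the receptor for apoptotic cells that is also 1 of the macrophage markers (1.24).

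**Figure D4:**
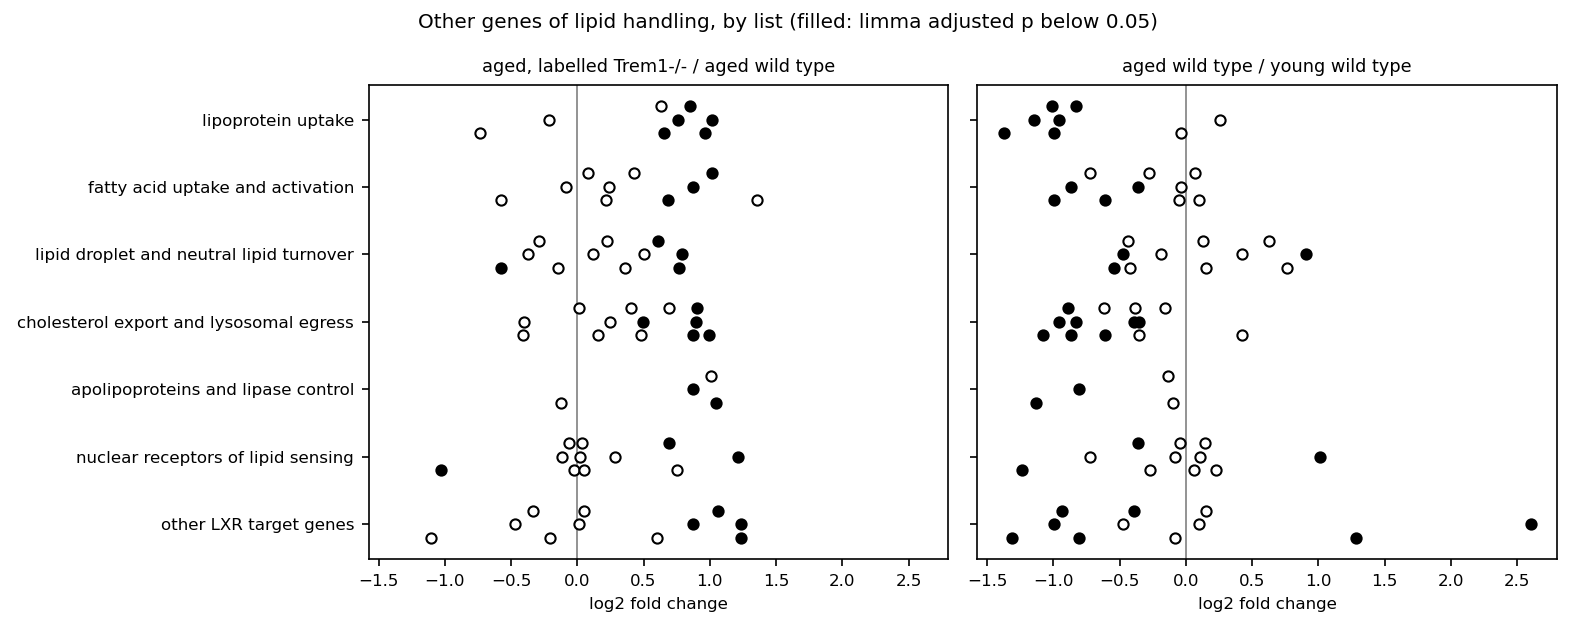
Log2 fold changes of the tested genes of 7 lists of lipid handling, with aged wild type against young wild type and aged Trem1-/- against aged wild type in separate panels; each point is a gene, and filled points passed an adjusted p of 0.05. Among all 64 genes, 26 are filled left of 0 by age and 22 are filled right of 0 by genotype, beside 19% and 11.5% of all genes tested.

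Per kilobase of the principal transcript, Apoe led in all groups, at 26881 ± 4511 normalized counts per kb with the Trem1-/- label, 19788 ± 12604 in aged wild type and 25088 ± 8524 in young wild type. Behind it the order differed. In the libraries labelled Trem1-/- came Fabp4 (766 ± 196 per kb), Plin2 (649.7 ± 192), Fabp5 (305 ± 115), Abca1 (206 ± 46.5), Lpl (163 ± 110), Mylip (108 ± 14.6), Abcg1 (80.5 ± 21.5), Nr1h3 (15.2 ± 3.29) and Apoc1 (4.01 ± 1.94). There Fabp4 and Plin2 lay within an SD of each other, as did Abca1 and Lpl. In aged wild type came Plin2 (259 ± 149), Fabp4 (233 ± 60.5) and Fabp5 (183 ± 59.4). Then came Abca1 (154 ± 28.6) and Mylip (128 ± 23.4). Of these, each gene after Plin2 lay within the SD of the gene before it. Lpl (90.2 ± 22.1) and Abcg1 (56.8 ± 15.4) came after them. Apoc1 (14.2 ± 16.1) and Nr1h3 (8.08 ± 5.09) were last. In young wild type Fabp4 (946 ± 180) was followed by Fabp5 (556 ± 188), Lpl (529 ± 91.7) and Plin2 (486 ± 61.6). Fabp5 and Lpl lay within an SD of each other, as did Lpl and Plin2, while Fabp5 lay outside the SD of Plin2. Then came Apoc1 (138 ± 87.1) and Abca1 (133 ± 38.2), also alike, Mylip (66.4 ± 6.36), Abcg1 (43.1 ± 8.11) and Nr1h3 (9.91 ± 2.19). Lpl thus ranked above Abca1 in young wild type and below it in both aged groups on this scale.

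Likeness of pattern was measured as the root mean square difference between log2 profiles over the 10 libraries, each centred on its own mean. The difference is not scaled to a gene's own amplitude, so genes that vary little have near neighbours more easily. Among all tested genes the nearest to Abca1 was Abcg1, and the nearest to Abcg1 was Abca1 (0.213 log2 units). The root mean square of their own profiles was 0.424 for Abca1 and 0.475 for Abcg1. Mylip was nearest to Ahdc1 (0.0829) and Aff1 (0.0860), beside 0.444 for its own profile. Fabp4 was nearest to Adam8 (0.183) and Fn1 (0.215), and Fabp5 to Psat1 (0.212) and D330045A20Rik (0.257), so neither carrier had the other among its closest pair. Plin2 was nearest to Mdm1 (0.194) and to Mertk (0.20), Nr1h3 to Tmem86a (0.215) and Gas2l1 (0.225), and Apoe to Zbed3 and Siglece (both 0.302). Lpl had Cdkn2c (0.344) and Neil3 (0.364) nearest. Apoc1, whose own profile had a root mean square of 2.12, was nearest to Erc2 (1.02) and Stab1 (1.04).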

How the data were processed

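RNA of 10 libraries was measured; per the labels' protocols it was extracted with a Qiagen column kit, copied to full-length cDNA with a stranded Takara kit and made into libraries with a NEBNext Ultra kit. Per the submitters' processing notes, the build was GRCm38 and the tools were DESeq2 1.20.0, featureCounts 1.5.0-p3, STAR and fastp; strand-aware counting is not given in the sources used here, so genes with overlapping exons are uncertain. The authors deposited normalized counts per gene and library, in units of signal, and their mean. They also deposited their own comparison of aged with young wild type as p-values, a Wald statistic (a score) and a log2 fold change with its error, which were not used for any result here. Dividing each column by its value of 1 read gave whole reads for 100% of values (tolerance 1e-06), 2663744 to 5603498 per library. Of the gene symbols, 98.7% matched GENCODE M21 on GRCm38, used for coordinates and lengths.

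Values were put on the log2(normalized count + 1) scale, which understates changes of low genes, and tested with limma-trend in R 4.3.3 (limma version 3.58.1). The 10 libraries shared 1 model of 3 groups. The 11506 genes averaging 10 or more normalized counts were tested, and p-values were adjusted by Benjamini-Hochberg over all of them (threshold 0.05). Alternatives were pseudocounts of 0.5 and 5, a minimum mean of 1 or none, TMM, equal macrophage markers, edgeR 4.0.16 (quasi-likelihood) and DESeq2 1.42.0 on the recovered reads, fits of only the groups compared, and leaving out each library. The script was checked on simulated counts. Intervals and floors on reads hold for counting error alone, because PCR copies cannot be told from separate molecules here. The members and lists were chosen with earlier results of these data known. Named beside the 10 members were up to 2 genes per list, direction and comparison with the smallest limma p, genes needed to account for a role, and the 2 nearest profiles per member; 1 gene that this rule picked is not reported here.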

Additional observations from a re-analysis of the deposited data

Results flagged for a closer look

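Of 31 sets of 4 young libraries, 1 per gene named from the lists or members, 2 held a library far from the other 3, and chance alone marks about 5% of such sets. Soat1 had 502 normalized counts in young wild-type replicate C, against 445 to 453 in the other young libraries (gap over range 0.86). Pnpla2 had 163 normalized counts in young wild-type replicate E, against 216 to 222 in the others (gap over range 0.897). Neither gene is among the 10 members, and the cause was not tested.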

How the results depend on the processing

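No paired analysis was possible because the groups share only the replicate number 3, and young libraries carry letters. Depth limits Apoc1 and Nr1h3, read 1 to 116 and 8 to 38 times per library. The causes of the differences between settings were not tested, except that leaving out libraries or groups also means fewer samples in the fit.

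In aged against young wild type the scaling to equal macrophage markers called 3 members higher and 3 lower, and 8567 of all genes higher and 145 lower, beside 1647 and 2190. Signs turned there for Apoe (0.59), Plin2 (0.016), Nr1h3 (0.59), Cd36 (0.057), Lrpap1 (0.045), Dbi (0.18), Soat1 (0.51), Bscl2 (0.58), Npc2 (0.19), Pltp (0.25) and Smpdl3a (0.12). With the Trem1-/- label against aged wild type it called 1 member higher and 2 lower, and 41 of all genes higher and 6891 lower, beside 1327 and 785. Signs turned for Lpl (-0.20), Fabp5 (-0.17), Apoe (-0.26), Abca1 (-0.47), Abcg1 (-0.39), Lrpap1 (-0.12), Slc27a4 (-0.00356), Soat1 (-0.28), Pnpla2 (-0.11), Pltp (-0.016) and Ncoa1 (-0.20). With that label against young wild type it called 18 of all genes lower, beside 38.

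Fits of only the groups compared called 1 member and 726 genes higher and 445 lower with the Trem1-/- label against aged wild type. Against young wild type they called 1 member and 154 genes higher and 145 lower, beside 0 members and 68 and 38 genes. In that last comparison 1 member was higher with a pseudocount of 5 and with a minimum mean of 1 (60 of all genes lower), 2 without a filter (161 genes higher, 102 lower) and 2 with DESeq2 (253 higher, 195 lower), and edgeR called 1 member lower. TMM and a pseudocount of 0.5 changed no call of the named genes.

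Leaving out each library gave 4 to 7 members lower and 1 higher in aged against young wild type, with 1149 to 1744 genes higher and 1591 to 2417 lower. With the Trem1-/- label against aged wild type it gave 1 to 4 members higher and 0 lower, with 762 to 1785 genes higher and 315 to 1015 lower; the lowest counts of genes came without aged wild-type replicate 3 and the highest without replicate 4. With that label against young wild type it gave 0 to 1 members higher and 0 to 2 lower, with 0 to 159 genes higher and 0 to 109 lower, and 0 genes in either direction without Trem1-/- replicate 3. Apoe ran there between -0.089 without young replicate E and 0.34 without young replicate B.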

Other observations

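Fabp4 and Fabp5 encode related carriers, and their ratio is given here as a description. Fabp4 stood at 2.31, 2.06 and 2.72 times Fabp5 in normalized counts with the Trem1-/- label, 1.26, 1.07 and 1.2 times in aged wild type, and 1.78, 1.69, 1.64 and 1.28 times in young wild type. The 3 groups did not overlap, although the lowest young library (1.28) lay just above the highest aged wild-type one (1.26). The mean log2 ratio differed by 1.0 between the Trem1-/- label and aged wild type (exact two-sided permutation p = 0.1), by 0.57 between that label and young wild type (exact permutation p = 0.0571) and by -0.43 between aged and young wild type (exact permutation p = 0.0571). These are the smallest p-values the numbers of libraries allow, they are 0.1, 0.0857 and 0.0857 after adjustment over the 3 comparisons, and the ratio was chosen after its values were seen.

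Lpl stood at 1.64, 0.509 and 0.798 times Fabp4 with the Trem1-/- label, 1.95, 1.45 and 2.01 times in aged wild type, and 2.35, 3.09, 2.30 and 2.64 times in young wild type. The young libraries were above all aged ones, and the libraries labelled Trem1-/- overlapped aged wild type through replicate 1. Over the 10 libraries the highest level of Apoc1 was 113 times its lowest, the widest range of the 10 genes, and that of Mylip 2.48 times, the narrowest.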
